A study of Mus musculus with 65 samples.

Results

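p0-1 progenitors are the neural tube progenitors that later give V0 and V1 interneurons, sorted here as a single population. The expression changes of these cells between day 4 and day 5 of differentiation were measured by bulk RNA sequencing in 11 of the 65 libraries of the series, namely every p0-1 library of these days. The mouse embryonic stem cell line HM1, grown on fibroblast feeders, was directed toward the spinal cord through neuromesodermal progenitors (NMPs), the day 3 population. From day 3 the cultures of these 11 libraries received retinoic acid and either 0 or 10 nM SAG. SAG is an agonist of Smoothened that stands in for Sonic hedgehog (Shh). Cells were fixed, stained inside the cell and sorted as SOX2-positive, PAX6-positive and NKX6.1-negative. Day 4 had 2 libraries at 0 nM SAG and 3 at 10 nM, and day 5 had 3 at each. Progenitors of the p2, motor neuron (pMN) and p3 domains, compared below, came from cultures that also received retinoic acid. Their SAG was 10 or 100 nM for p2 and 100 or 500 nM for pMN and p3. All libraries come from this 1 cell line, and independent differentiations are stated for the study's chromatin libraries but not for these, so p-values measure the spread between libraries, which may be partly technical.

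Progenitors of the neural tube divide next to the lumen, and graded Shh signaling from the ventral side assigns them to domains by the transcription factors they express. The p0 and p1 domains lie dorsal to those that express Nkx6-1, and Dbx1 is the homeodomain factor that marks p0. With time the progenitors lose genes of the epiblast and NMP stages, while microRNAs of the let-7 and miR-125 families, known for their role in developmental timing, accumulate in many tissues.

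The values were read counts that the authors divided by a size factor for each library, called normalized reads below. They are not scaled by gene length, so levels are compared between libraries and not between genes. A library held 8066735 to 11429023 reads, and 1 read was worth 0.838 to 1.23 normalized reads. Genes with at least 1 read numbered 12008 to 14124 on day 4 (median 13985) and 11686 to 13406 on day 5 (median 12415). The library of day 4, 10 nM, replicate 1 had the fewest detected genes of its day. That library and day 5, 0 nM, replicate 2 had the lowest median correlations with the other 10 libraries (0.702 and 0.691, others at least 0.719).

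The sorted label was checked on both days. Pax6 lay at 1852 to 5185 normalized reads on day 4 and 1989 to 5749 on day 5. Nkx6-1, the factor selected against, was at 11.9 to 52.4 on day 4 and at 0 to 67.5 on day 5. The p3 factor Nkx2-2 had 0 reads in all 11 libraries, and the motor neuron progenitor factor Olig2 had reads only in day 5, 10 nM, replicate 3, at 103. Sums over each marker list of other cells overlapped between days. Those of the 6 NMP markers ran from 0 to 212 on day 4 and from 0 to 0.913 on day 5, with Cdx1 and Fgf8 at 0 in all 11. The 8 markers of postmitotic neurons summed to 1250 to 1867 on day 4 and 329 to 1758 on day 5. The 7 endoderm markers summed to 209 to 570.2 and to 0 to 249.8, and the 6 pluripotency markers to 40.2 to 99.6 and to 1.68 to 159. The 8 fibroblast markers summed to 161 to 500.1 and to 13.4 to 659, with Lum, Postn and Thy1 at 0 throughout. Markers of neighboring domains and neural crest were not absent. The 7 p3 and floor plate markers summed to 0 to 137 on day 4 and 0 to 288 on day 5. For the 7 neural crest markers the sums were 10.9 to 657 and 165 to 903. Those of the 8 dorsal and roof plate markers were 16.4 to 203 and 0 to 532, and of the 5 p2 markers 20.9 to 196 and 0 to 76.7. The part of such cells in the changes below was not tested, and fewer cells of a type cannot be told apart from less RNA per cell in bulk samples.

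Day 5 was compared with day 4 with limma on log2(normalized reads + 1), with SAG as a block, for 13628 genes, those whose mean over the 11 libraries reached 10. Genes with a Benjamini-Hochberg adjusted p below 0.05 and more than a 2-fold change were called. By this rule 54 genes (0.396%) changed, of which 32 (0.235%) were higher on day 5 and 22 (0.161%) lower. An unadjusted p below 0.05 was found for 1465 genes. The median log2 change of all genes was -0.14, and 42.1% of genes were above 0, so changes are best read against that small downward shift. The libraries of the days did not overlap for 31 of the 32 higher and 21 of the 22 lower genes (Emid1 and Tubb6 were the exceptions). Of all genes tested 2.36% did not overlap, 1.07% being higher and 1.29% lower. All 54 genes changed in the same direction at 0 nM and at 10 nM SAG. For all but Emid1 and Tubb6 this follows from the lack of overlap, so it adds no separate evidence.

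How far these calls rest on single libraries differed between genes. Only Mir99ahg, Dbx1, Wnt7a, Hoxb3, Slc39a14 and Ptn passed in all 11 fits that left out 1 library, with adjusted p of at most 0.0339 in limma. The other 48 lost the call in at least 1 such fit, where their largest adjusted p ran from 0.0553 to 0.212, and for 38 of them that value came without day 4, 0 nM, replicate 2. edgeR's quasi-likelihood test on the recovered reads called 22 genes, all among the 54, and DESeq2 called 258, with 53 of the 54 among them. With the number of detected genes as a covariate 161 genes were called, with 31 of the 54 among them.

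Among the largest rises were those of a pair of long noncoding RNAs that host microRNA clusters. Mir99ahg had 0 reads in all 5 libraries of day 4. On day 5 it lay between 143 and 948 normalized reads in the 6 libraries (median 478), at least 137-fold higher when 3 reads per library are taken as the floor (adjusted p = 0.00417). Mir100hg was at 7.66 in day 4, 0 nM, replicate 2 and at 0 in the other 4 libraries of that day. Its day 5 values ran from 106 to 578 (median 173), a log2 change of 6.92 ± 1.16 (SE, adjusted p = 0.0191, called in 4 of the 11 fits without 1 library and not by edgeR). On day 6, which entered no test, their means were 1450.5 ± 993 and 983 ± 679 (SD, n = 6).

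The mature microRNAs of these clusters are shown because the clusters carry the same 3 seed types, although only the host RNA was measured. Sequences and positions are those of RefSeq on GRCm38.p6, 5′ to 3′, and capitals mark the seed at bases 2 to 8.
mmu-miR-99a-5p: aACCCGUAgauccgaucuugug
mmu-miR-100-5p: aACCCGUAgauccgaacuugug
mmu-let-7c-5p: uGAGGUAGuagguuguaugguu
mmu-miR-125b-5p: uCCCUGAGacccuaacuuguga
The first pair shares a seed, with miR-99a from the Mir99ahg cluster and miR-100 from that of Mir100hg. The let-7 seed is shown for let-7c of the Mir99ahg cluster, and let-7a-2 lies in the other. miR-125b has a copy in each.

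The hairpins of Mir99a (chromosome 16, 77598936 to 77599000) and Mirlet7c-1 (77599657 to 77599750) and the mature miR-125b-5p of Mir125b-2 (77646279 to 77646300) lie on the plus strand. They begin 40508 bases or more past the end of the Mir99ahg model that the authors counted over (77329328 to 77558428), and inside the longer gene of GENCODE M21 (77236317 to 77773427). The hairpins of Mir100 (chromosome 9, 41531425 to 41531504), Mirlet7a-2 (41536716 to 41536811) and Mir125b-1 (41581926 to 41582002) lie in introns of the counted Mir100hg model (41376526 to 41615183). The libraries were made from polyA RNA and do not measure mature microRNAs. The entry for the Mir100 hairpin was at 0 on day 4 and at 0 to 95.8 on day 5 (adjusted p = 0.181), and those for Mir99a, Mirlet7c-1, Mir125b-2, Mirlet7a-2 and Mir125b-1 were at 0 in all 11 libraries. Lin28a, whose protein blocks let-7 maturation, was at 1293 to 2520.1 on day 4 and 279 to 1216 on day 5. Its days did not overlap, with means of 1631 and 859, but the change did not pass the test (adjusted p = 0.306). Lin28b did not pass either (0.34 ± 0.30, adjusted p = 0.72). Both genes and the hairpins were chosen after their values were seen.

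More long noncoding RNAs rose. Miat was at 1.82 to 86.0 on day 4 and 654 to 1964 on day 5, a log2 change of 5.83 ± 0.95 (adjusted p = 0.0163). D930007P13Rik went from 16.4 to 60.7 on day 4 to between 295 and 1233 on day 5 (4.42 ± 0.66, adjusted p = 0.00995). Neither overlapped between days. Miat lost its call without day 4, 0 nM, replicate 2 or day 5, 10 nM, replicates 1 or 2, D930007P13Rik without either of the latter, and Miat also in edgeR.

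Among the 30 transcription factors that define progenitor domains, 16 passed the filter and 1, Dbx1, rose (6.25%, against 0.396% of all genes). The lists were chosen with earlier results of these data known, so such shares, here and below, are no test. Dbx1 (chromosome 7, 49631499 to 49636835) was at 229.8 and 329.6 normalized reads at 0 nM on day 4, and at 180.4, 98.3 and 56.1 at 10 nM. On day 5 its lowest, median and highest values were 917, 1677 and 2615, so that every library of day 5 lay above every library of day 4. The log2 change was 3.30 ± 0.42 (adjusted p = 0.00417), and the means rose from 179 to 1657. It was at 0 in the NMPs of day 3 and at 2869 ± 673 on day 6 (SD, n = 6). The call was lost where the spread was shared with libraries of other cell types (adjusted p = 0.22 over 40 libraries, 0.0989 over 65).

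The other domain factors named did not pass the test. Pax6 had a log2 difference of 0.12 ± 0.29 on the log2 scale (adjusted p = 0.909), Irx3 by 0.59 ± 0.21 (0.31) and Irx5 by 0.58 ± 0.35 (0.572). Prdm12, a p1 factor, had 0 reads in all of day 4 and 0 to 535 on day 5, with a median of 169, and did not pass (adjusted p = 0.277). Prdm13 ran from 0 to 66.7 and from 0 to 487 (0.513). Dbx2 ran from 0 to 226 on day 4 and 0 to 122 on day 5 (0.687), and Nkx6-2 from 0 to 442 and 0 to 268 (0.536). The dorsal factors Pax3 (0.986) and Pax7 (0.747) and the negative sort gene Nkx6-1 (0.456) also missed the threshold. The progenitor factor Sox2, a sort gene, was at 1151 to 1328 on day 4 and 1468 to 2966 on day 5, without overlap, and missed the call too (0.90 ± 0.22, adjusted p = 0.116).

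Of 30 neural progenitor genes tested, 3 rose (10%, against 0.396% of all genes called) and none fell. The list median was 0.39 against -0.14 for all genes. Nr2f1, a nuclear receptor of the neural tube, was at 60.2 to 562 on day 4 and 886 to 2024 on day 5 (2.68 ± 0.49, adjusted p = 0.0257). The POU factor Pou3f2 went from between 612 and 1616 to between 1722 and 3189.9 (means of 1022 and 2550.2, adjusted p = 0.0451). Ednrb, the endothelin receptor B, went from between 2374 and 4055 to between 5091 and 10015 (1.07 ± 0.21, adjusted p = 0.0429). None of these 3 overlapped between days, and all 3 lost the call in edgeR. Without 1 library Nr2f1 was called in 5 of the 11 fits, Ednrb in 3 and Pou3f2 in 2, and all 3 lost the call without day 4, 0 nM, replicate 2, among others. Exons of Nr2f1 overlap A830082K12Rik on the other strand, and the counting is not stated to use strand.

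Hox genes encode the factors of rostrocaudal identity. Of the 19 tested, 2 passed, where 0.396% of all genes were called. Of the same 19, 15 were above 0, against 42.1% of all genes, with a list median of 1.06 against -0.14. The other 20 of the 39 listed Hox genes averaged below 10 normalized reads and were not tested. They were Hoxa7, Hoxb8, Hoxc6, Hoxd8 and genes with higher numbers in the same clusters. The list median therefore covers only the 19 tested genes. Hoxb3 was at 211 to 482 on day 4 and at 1130.4 to 2312 on day 5, with a median of 1523. Its log2 change was 2.34 ± 0.31 (adjusted p = 0.00566). Hoxd3 was at 418 to 1268 on day 4, lowest in 10 nM, replicate 1, and at 2073 to 3059.8 on day 5 (1.56 ± 0.28, adjusted p = 0.0239, called in 5 of the 11 fits without 1 library). Each overlaps an antisense gene, Hoxb3os and Gm38462. Hoxb4, chosen after its values were seen, had means of 83.5 and 515 and missed the threshold (2.89 ± 0.61, adjusted p = 0.0537).

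**Figure D1:**
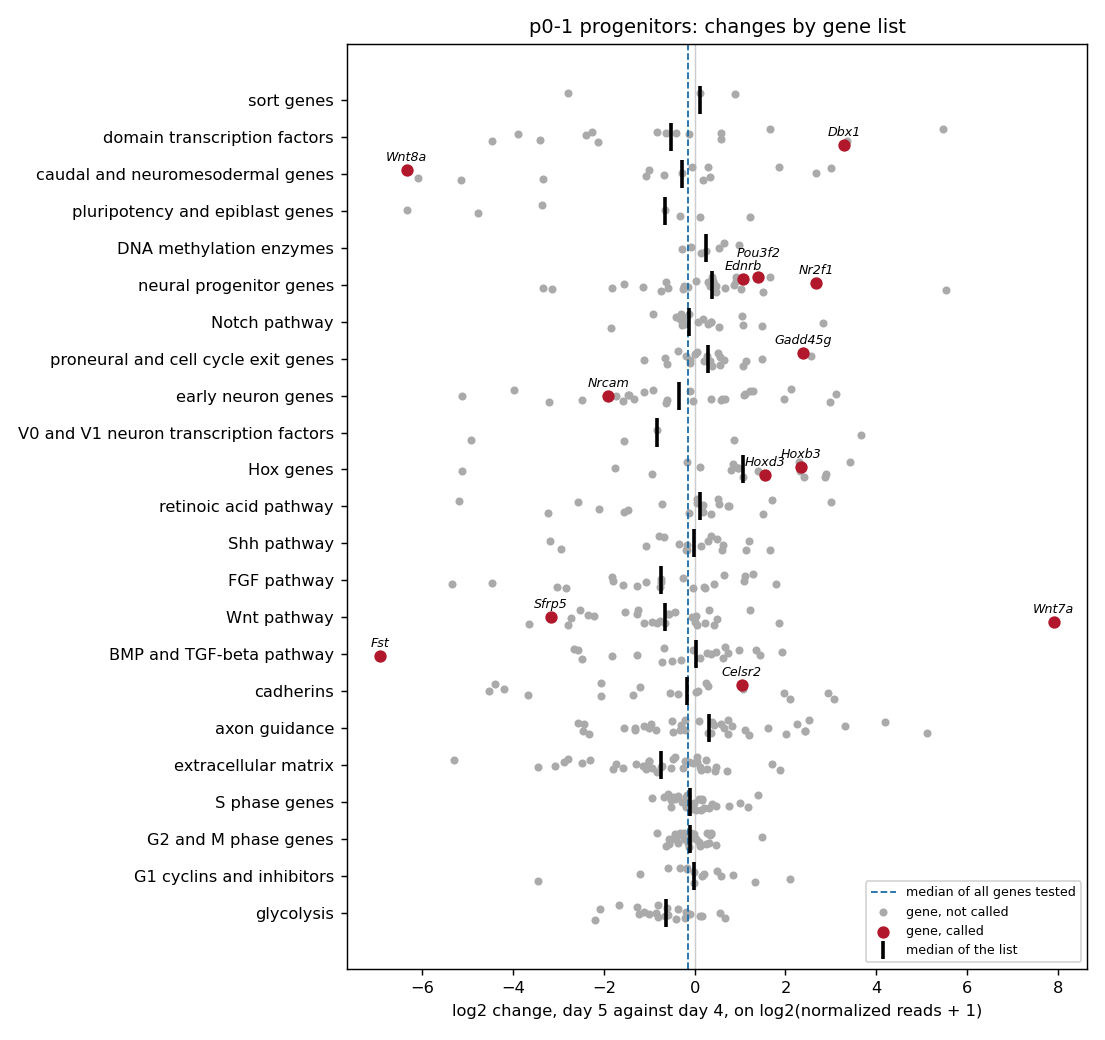
Log2 change between day 4 and day 5 in p0-1 progenitors for the genes of 23 lists (gray, not called; red, called and named), with each list's median as a black bar and the median of all genes as a dashed line. The Hox list has its median at 1.06, and the glycolysis and extracellular matrix lists at -0.63 and -0.73.

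Among 29 Wnt pathway genes 1 rose and 1 fell (6.9% called, against 0.396% of all genes, list median -0.66). The ligand Wnt7a was at 0 in 3 libraries of day 4 and at 6.38 and 0.919 in the others. On day 5 it lay at 282 to 547 (median 396), a log2 change of 7.91 ± 1.09 (adjusted p = 0.00566). Sfrp5, a secreted Wnt inhibitor, was at 564 to 2283 on day 4 and 52.8 to 519 on day 5 (-3.17 ± 0.63, adjusted p = 0.0444), and lost the call in edgeR and without 7 of the 11 libraries in turn. In the list of BMP and TGF-beta genes 1 of 22 (4.5%) fell, namely Fst, the activin antagonist follistatin. It had 25.6 to 466 normalized reads on day 4 and 0 reads in all 6 libraries of day 5, at least 55.7-fold lower (adjusted p = 0.0214). In the NMPs of day 3 it stood at 18588 ± 8792 (SD, n = 3).

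Of the 15 caudal and NMP genes tested 1 fell (6.7%, against 0.396% of all genes called). Wnt8a, a ligand of the primitive streak and tail bud, was at 57.5 to 115 on day 4 and at 0 in all libraries of day 5, at least 25.2-fold lower (adjusted p = 0.0224). Its mean in NMPs on day 3 was 2498 ± 238. None of the 7 pluripotency and epiblast genes passed. Epcam was nearest, with 166 to 440.3 on day 4 and 0 to 147 on day 5 (adjusted p = 0.0769), followed by Dppa4 (adjusted p = 0.307). Neither Wnt8a nor Fst was called by edgeR. Both lost the call without day 4, 0 nM, replicate 2, where their adjusted p was 0.104.

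Genes of neuronal differentiation gave 1 rise and 1 fall. Gadd45g, an early target of proneural factors, was at 84.9 to 559 on day 4 and 559.6 to 2425 on day 5, so that its ranges nearly met (2.38 ± 0.49, adjusted p = 0.0492, called in 1 of 11 fits without 1 library). The other 21 proneural and cell cycle exit genes tested did not pass (4.5% of the list called, against 0.396% of all genes). Nrcam, a neuronal adhesion molecule, was the single call among 28 early neuron genes (3.6%). It fell from between 1538 and 2771 to between 328 and 1493 (-1.90 ± 0.33, adjusted p = 0.0224). The neuron marker sums had medians of 1439 on day 4 and 784 on day 5, and their part in this fall was not tested. Nrcam lost the call without 6 of the 11 libraries in turn. None of the 5 V0 and V1 neuron factors tested passed, and Foxp2 had an adjusted p of 0.397.

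Several lists had no called gene. With 0.396% of all genes called, lists of 7 to 38 genes can hold no call without differing from all genes. For Notch (21 tested) the smallest p belonged to Dlk1 and Notch3 (adjusted p = 0.452 and 0.534), for Shh (18) to Scube3 and Hhat (0.387 and 0.466), and for retinoic acid (20) to Stra6 and Aldh1a2 (0.311 and 0.169). Fgfbp3 and Fgfr2 came nearest among 22 FGF genes (0.134 and 0.178) and Ephb2 and Sema3c among 38 axon guidance genes (0.0702 and 0.181). Tet3 and Tet2 did so among 7 DNA methylation enzymes (0.477 and 0.523). For S phase (30 genes) they were Cdca7 and Clspn (0.241 and 0.32), for G2 and M phase (30) Cdc25b and Ccnb2 (0.153 and 0.348), and for G1 (15) Mycn and Myc (0.338 and 0.349). Medians of the 3 cell cycle lists lay between -0.10 and -0.02. Of 20 cadherins 1 (5%) rose, Celsr2, a planar polarity cadherin. It went from between 837 and 1225 to between 1848 and 2648 (1.03 ± 0.21, adjusted p = 0.047, not called by edgeR nor in any fit without 1 library).

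Glycolysis and matrix genes lay mostly below 0 without a single call. Of 22 glycolysis genes 18 were below 0, with a median of -0.63, and 12 had an unadjusted p below 0.05. The enzyme Aldoa was at 4027 to 5124 on day 4 and 1029.6 to 3393 on day 5 (-1.12 ± 0.26, adjusted p = 0.089), and the glucose transporter Slc2a1 at 8767 to 18954 and 5452 to 8944 (-0.85 ± 0.20, adjusted p = 0.107). Of 38 extracellular matrix genes 27 were below 0, with a median of -0.73 and 12 at an unadjusted p below 0.05 in that direction. The laminin chain Lamb1 went from between 1179.7 and 1968 to between 157 and 902 (adjusted p = 0.102). Thsd4 went from between 1723 and 2493 to between 0 and 671 (adjusted p = 0.116). Among all genes, 939 of 13628 lay at an unadjusted p below 0.05 on that side.

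Outside the lists, the forkhead factor Foxe3 was at 87.7 in day 4, 0 nM, replicate 3 and at 0 to 7.35 in the other 4 libraries. On day 5 it was at 443 to 903 (6.95 ± 1.12, adjusted p = 0.0163, not called by edgeR). Its mean was 666 on day 5 and 339 ± 182 (SD) on day 6, which entered no test. Slc39a14, a zinc and iron transporter named after its values were seen, had the smallest adjusted p of all genes. It went from between 514 and 1051 to between 2201 and 3463 (1.96 ± 0.22, adjusted p = 0.00324). The netrin receptor Unc5a went from between 52.8 and 499 to between 1090.1 and 2641 (2.96 ± 0.48, adjusted p = 0.0163). The hexokinase Hk3, at 0 to 41.1 on day 4 and 116 to 853 on day 5, has an exon that overlaps one of Unc5a on the other strand, so reads from the shared bases cannot be told apart. The same holds for Epha10 and 1700125G02Rik. Hk3 had an adjusted p of 0.0444, as against 0.0491 for the Eph receptor Epha10 and 0.0492 for the adhesion receptor Adgrv1. These 3 were called in 2 or fewer of the 11 fits without 1 library and not by edgeR.

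Of the 22 lower genes, 14 had at most 3 reads in every library of day 5, while 1 of the 32 higher genes had so few in every library of day 4. The shares of all tested genes with so few reads are not given here. Fewer genes were detected on day 5 than on day 4 (medians of 12415 and 13985), so these counts show no trait of the called genes. Dpp4, a cell surface peptidase, was at 269 to 362 in the 5 libraries of day 4. On day 5 it had 0 in 4 libraries and at most 2.03 normalized reads in the rest (adjusted p = 0.00995). Trh, the precursor of thyrotropin-releasing hormone, was at 365 to 796 in 4 libraries of day 4, at 1.82 in day 4, 10 nM, replicate 1, and at 0 on day 5, at least 145-fold lower (adjusted p = 0.0429). Fgfbp1, a carrier of FGF ligands, fell from between 48.7 and 192 to 0, at least 36.7-fold (adjusted p = 0.0172). Penk, the enkephalin precursor, went from between 35.0 and 442 to 0, at least 45.8-fold (adjusted p = 0.0239), and Pdgfrl from between 13.7 and 359 to 0, at least 41.8-fold (0.032). Ggct (103 to 195 on day 4, at most 1.05 on day 5), Pmel (25.8 to 229, then at most 4.22) and Nrg1 (43.2 to 341, then at most 34.8) were also called, and exons of Pmel overlap Dgka on the other strand. Of these 8 genes edgeR called Dpp4, Trh and Ggct. With the number of detected genes as a covariate, Trh, Pmel and Nrg1 lost the call. Of the 11 fits without 1 library Dpp4 was called in 10, Fgfbp1 in 5, Penk and Ggct in 4, Pmel in 2, and Trh, Pdgfrl and Nrg1 in 1. Day 4, 0 nM, replicate 2 was the library whose omission lost the call of Dpp4, and for the others it was 1 of several. On day 6, which entered no test, some of the 8 had reads again. Means were 62.5 ± 65.4 for Ggct, 77.5 ± 85.3 for Penk and 68.4 ± 122 for Nrg1 (SD). Those of Trh, Pdgfrl and Fgfbp1 were 18.0, 17.4 and 8.79, and Dpp4 and Pmel were at 0.

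A pair of abundant genes fell without reaching 0. The secreted growth factor Ptn was at 6860.5 to 10174 on day 4 and 984 to 4558 on day 5 (-2.01 ± 0.27, adjusted p = 0.00566). Gpx3, a secreted glutathione peroxidase, was at 7747 to 14073 and 2677 to 6128 (-1.53 ± 0.23, adjusted p = 0.00995). Their day 6 means were 1427 ± 957 and 1012 ± 544 (SD, n = 6).

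The 54 genes were then followed between the same days in p2, pMN and p3 progenitors (9, 10 and 10 libraries), which the call had not used. p2 and p0-1 were both sorted from 10 nM cultures, so some of their libraries can come from the same dish. On day 4 p2 had 1 library at 10 nM and 2 at 100 nM. That day p3 had 1 library at 100 nM and 3 at 500 nM, and pMN had 2 at each of these concentrations. Since pMN and p3 came only from 100 and 500 nM SAG, cell type and SAG concentration cannot be told apart for them. In a fit over 40 libraries, which shared 1 estimate of the spread with p0-1, 0.386% of genes were called in p2, 1.1% in pMN and 4% in p3, and 0.7% in p0-1 itself. Called higher were 0.197%, 0.707% and 3.53% in p2, pMN and p3. Of the 32 genes higher in p0-1, 16 were called higher in p2, 17 in pMN and 15 in p3, and none was called lower. The change had the same sign for 32, 32 and 29 of the 32. Among all 5602 tested genes with a positive change in p0-1 it had the same sign for 59.7, 63.7 and 67.4%.

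Of the 32 genes, 11 were called higher in each of the 3 other types, namely Slc39a14, Mir99ahg, D930007P13Rik, Miat, Mir100hg, Hoxd3, Nr2f1, Ckb, Ednrb, Pou3f2 and Gadd45g. Mir100hg changed on the log2 scale by 7.46 ± 1.28 in p2, 7.65 ± 1.16 in pMN and 6.71 ± 1.20 in p3 (SE). All but Gadd45g were also called in p0-1 in the fit over 40 libraries (adjusted p = 0.0984 for Gadd45g). Another 11 were called higher in none of the 3 other types, but 5 of these, Dbx1, Scai, Igfbp2, Epha10 and Emid1, were not called in p0-1 either in that fit, so these calls do not show that the types differed. Dbx1 had log2 differences of 3.66 ± 1.39 in p2, 2.44 ± 1.25 in pMN and near 0 in p3. The test of the difference from the mean of the others was not passed by Dbx1 (a log2 difference of 1.26, adjusted p = 0.994).

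Of the 22 genes lower in p0-1, 3 were called lower in p2, 6 in pMN and 7 in p3, against 0.189%, 0.393% and 0.466% of all genes. Fst and Ptn were called lower in each of the 3 other types and 13 of the 22 in none of them. Of these 13, Pmel and Kcna3 were not called in p0-1 either in the fit over 40 libraries, and the counts are no test that the types differed. Their sign was the same for 20, 19 and 16 of the 22, and for 68.5, 57.6 and 50.2% of all genes with a negative change in p0-1.

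**Figure D2:**
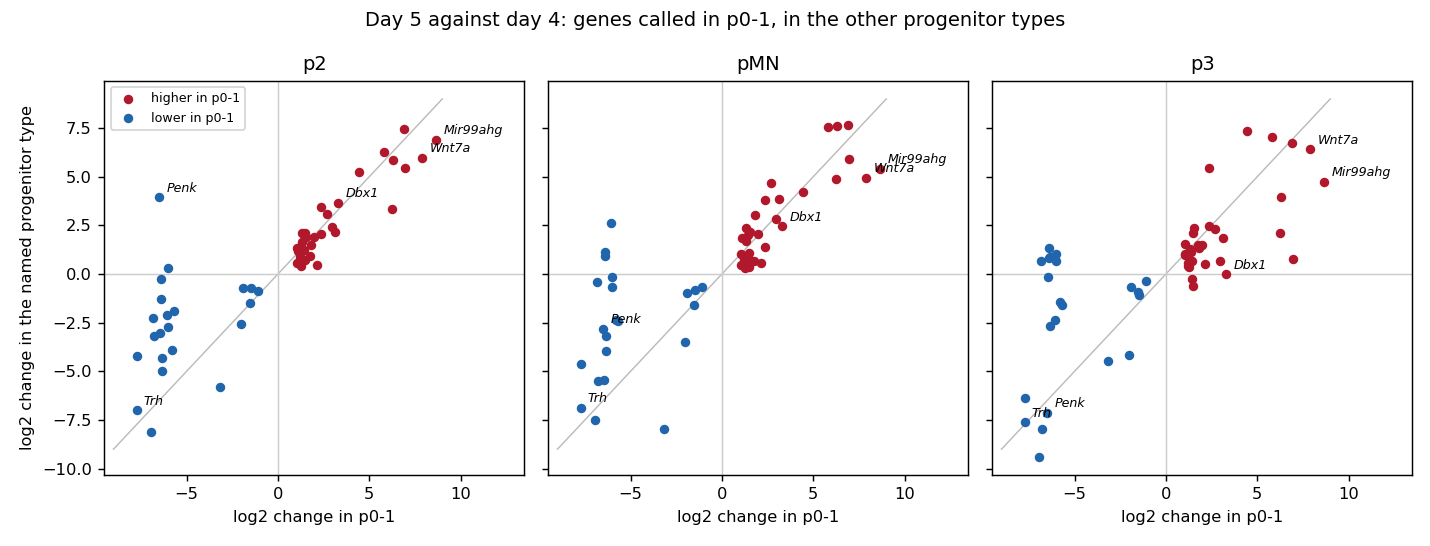
Log2 change between day 4 and day 5 of the 54 genes called in p0-1 (x axis) and the change of the same genes in p2, pMN and p3 (y axis, 1 panel each); the diagonal marks equal change. Genes higher in p0-1 (red) lie above 0 for 32, 32 and 29 of 32, and Penk lies at 3.96 in p2.

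Whether the day change itself differed was tested in the same fit. Against p2 no gene of 13723 passed in limma (261 at an unadjusted p below 0.05), nor in edgeR. Penk came nearest, with a difference of -10.46 ± 2.09 (adjusted p = 0.206), since it was at 0 to 105 on day 4 and 0 to 185 on day 5 in p2. Gorasp2 was next (0.851), and Btbd17, Prdm16, Tmem119 and Pam had an adjusted p of 1.

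Against the mean of p2, pMN and p3 a single gene passed (0.00729% of genes), Btbd17, which encodes a BTB-domain protein. In p0-1 it was at 699 to 3323 on day 4 and 489 to 1198 on day 5. In p2 it went from between 1594 and 1818 to between 2325 and 8643, in pMN from between 1557 and 2839 to between 5798 and 10158, and in p3 from between 964 and 2444 to between 1391 and 4426. The difference in log2 change was -2.29 ± 0.39 (adjusted p = 0.0182) and was called by edgeR too. It was lost in 6 of the fits that left out 1 library, those without p0-1 on day 4 at 0 nM, replicates 2 and 3, at 10 nM, replicate 1, on day 5 at 0 nM, replicate 2, and at 10 nM, replicate 2, and p2 on day 4 at 10 nM, replicate 3. Olfml3, 5930403L14Rik and Pappa followed, with adjusted p of 0.277 to 0.284, and Gorasp2 and Prdm16 did not pass either (0.324 and 0.37).

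**Figure D3:**
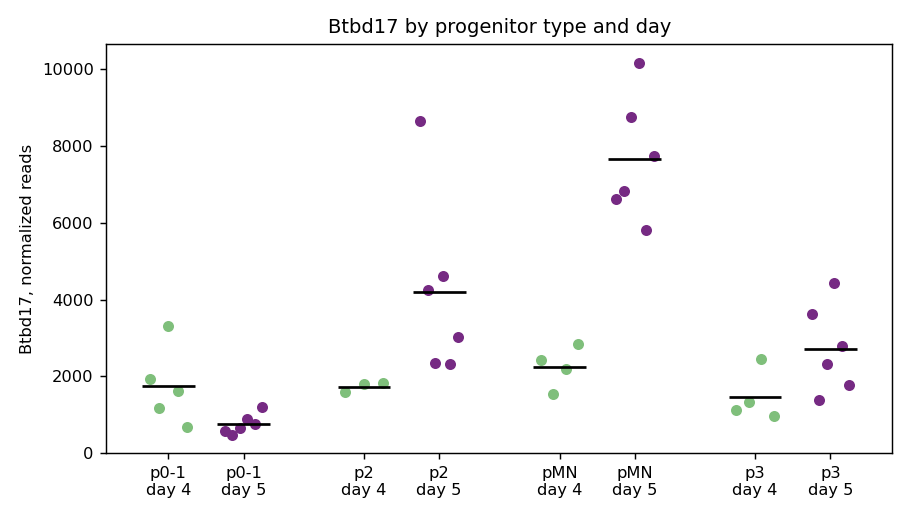
Normalized reads of Btbd17 in each library of p0-1, p2, pMN and p3 on day 4 (green) and day 5 (purple); black lines are means. The means of the 2 days are 1753 and 768 in p0-1 and 2257 and 7643 in pMN.

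The day change was also compared between 10 and 0 nM SAG. A single gene passed (0.00734%), the histone gene H2ac15, with a difference of -5.37 ± 0.69 in log2 (adjusted p = 0.0267), and 343 genes had an unadjusted p below 0.05. It was at 58.0 and 74.0 at 0 nM on day 4 and at 1304 to 2505 at 10 nM. On day 5 it was at 1449.6 to 2767 and at 603 to 1744. Low values also occurred in other types, with 48.4 in the p2 library of day 4 at 10 nM. At 500 nM H2ac15 ran from 81.5 to 2735 in pMN on day 5 and from 136 to 1441 in p3 on day 4. Whether the low values on day 4 at 0 nM go with SAG or with single libraries was not tested. The call was lost in edgeR and in 10 of the 11 fits without 1 library, the exception being day 5, 10 nM, replicate 2, and the family of near-identical H2A genes leaves its counting uncertain. Among the genes that did not pass, Pcdhgb7, AI429214, Zkscan8, Gabpb2 and Clcn2 had adjusted p of at least 0.927.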

How the data were processed

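Per the labels and the study's methods, SMART-Seq HT and Nextera XT libraries were made from polyA RNA of fixed, sorted cells. Reads were aligned with STAR to mm10 and counted per gene with featureCounts, leaving out duplicates, which lowers abundant genes most. The deposited table holds an expression signal, read counts that the authors divided by a size factor per library. All 834400 values above 0 gave whole reads (100%, tolerance 0.01), recovered by dividing by the smallest value of the library. The deposited annotation gave gene positions. Reads carry no molecular identifiers, so floors of 3 reads cover counting error only. The study's methods describe this RNA as low in quality and limited in amount, and some samples were excluded on quality criteria. A value of 0 reads may therefore be RNA that was missed.

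limma 3.58.1 in R 4.3.3 was fitted on log2(value + 1) where a gene averaged 10 or more over the 11 libraries. Fold changes are on that scale and understate low genes. edgeR 4.0.16 and DESeq2 1.42.0 ran on recovered reads as alternatives. The comparison with other types used the 40 libraries of days 4 and 5. The fits were also run on simulated counts, with 1 setting of the spread for all genes and changes only in well-expressed genes. Such counts do not show how the fits do on the real libraries.

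The comparison, gene lists and naming rule were chosen with earlier results of these data known. Named were the sort genes, Dbx1, Dbx2, Irx3, Irx5, Nkx6-2, Prdm12, Prdm13, Pax3 and Pax7, up to 4 called genes per direction and list (or the 2 with the smallest p), up to 10 per direction outside the lists by size of change, averaging 100 or more on either day and without overlap, and up to 3 per direction in each comparison of day changes. Some genes that this rule names are not reported here.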

Additional observations from a re-analysis of the deposited data

Results flagged for a closer look

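In 160 groups of libraries (86 named genes, each day apart) the highest or lowest library was set against the others with Dixon's test, and 23 stood apart. About 1 in 20 groups does so by chance if values follow a normal distribution. Where all other libraries are at 0, any read sets a library apart. This was so for Mir100hg, Prdm16, Ggct, Pappa and, on day 5, Pmel. The number that stood apart can therefore not be read against that rate. On day 4, the library at 10 nM, replicate 1, was low for Dppa4 (0 normalized reads), Tet3 (111), Hoxd3 (418), Clspn (208), Unc5a (52.8), Trh (1.82) and Zkscan8 (156), and high for Pam (1041) and Lin28a (2520.1). That library also had the fewest detected genes of its day, and 72 genes were called without it. Also on day 4, replicate 2 at 0 nM stood apart for Mir100hg (7.66) and Prdm16 (17.5), replicate 3 at 0 nM for Nkx6-2 (0) and Pax7 (27.4), and replicate 2 at 10 nM for Pmel (25.8).

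On day 5, replicate 3 at 0 nM stood apart for Hoxd3 (2073), Ggct (1.05), Pmel (4.22), Nrg1 (34.8) and 5930403L14Rik (0). Replicate 2 at 0 nM did so for Stra6 (0) and Lin28a (279), and replicate 1 at 10 nM for Cdca7 (1150.4) and Pappa (2.18).

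The day change of H2ac15 differed between 10 and 0 nM SAG by -5.37 on the log2 scale (limma adjusted p = 0.0267). This call was lost in edgeR and in most fits without 1 library, and H2ac15 was also low in single libraries of other types. The day change of Btbd17 differed between p0-1 and the mean of p2, pMN and p3 by -2.29 (limma adjusted p = 0.0182). That call held in edgeR and was lost in some fits without 1 library.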

How the results depend on the processing

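Between day 4 and day 5, 54 genes were called. Other counts were 23 for genes with a mean of at least 100, 22 with edgeR, 258 with DESeq2, 157 with array weights, 10 at an adjusted p below 0.01, and 96 and 123 where 40 or 65 libraries shared the spread. With the number of detected genes as a covariate, chosen after seeing the data, 161 were called, 126 of them higher, and the median of all genes was 0.02. limma called 0 genes in the 0 nM libraries alone, where 742 had an unadjusted p under 0.05, and 0 in the 10 nM libraries alone (965), where fewer libraries enter the fit. The split of 32 higher and 22 lower was 37 and 16 with quantile normalization, 19 and 4 at the higher mean. Without 1 library the count ran from 7 to 72, with 7 without day 4, 0 nM, replicate 2 or day 5, 10 nM, replicate 1, 9 without day 5, 10 nM, replicate 2, and 15, 16, 20 and 23 without day 4, 10 nM, replicate 2, day 5, 10 nM, replicate 3, day 4, 10 nM, replicate 3 and day 4, 0 nM, replicate 3. No called gene reversed in any alternative, and over genes and alternatives 788 of 1444 calls held. The difference between SAG doses gave 0 genes with edgeR (391 at an unadjusted p below 0.05), 0 with the replicate block (328) and 0 to 1 without 1 library. The difference from p2 gave 0 to 1 without 1 library (1 without p2 on day 4, 100 nM, replicate 2, or on day 5, 10 nM, replicate 3), and that from p2, pMN and p3 gave 0 to 5. Apart from the settings above, the cause of these shifts was not tested. Whether equal replicate numbers mark a shared differentiation is not known. The 5 same-numbered pairs had correlations of 0.0012 to 0.021 in their deviations (median 0.0136, against -0.0025 for other pairs). Deviations from the mean of 2 or 3 libraries sum to 0, so these values cannot decide it. With the replicate block 38 genes were called, 35 of them among the 54, and 1693 had an unadjusted p below 0.05 in limma (1465 without it). At 3 reads per library, genes at 0 on a day allow only lower bounds of the fold change.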
